A study of Mus musculus with 12 samples.

Results

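The 43 genes described here encode the enzymes that turn glucose into pyruvate and lactate, the carriers of glucose and lactate across the cell membrane, the subunits of the hypoxia-inducible factors (HIF), the enzymes that sense oxygen for HIF, and a set of HIF target genes. They were chosen by gene symbol from these roles, with earlier results of these data known. All 43 were found among the 55414 genes of the count table. Gene expression had been measured by RNA-sequencing of macrophages recruited to the calf muscle of C57BL6J wild type mice, which were males aged 8 to 12 weeks, after hind-limb ischemia. In this model the femoral artery is ligated and a segment of it removed, and the muscle downstream degenerates and regenerates. The 12 libraries, 3 for each time point, were made on day 1, 2, 4 or 7 after injury (written as dpi, days post-injury). All 4 groups carried the same surgery and genotype. No library came from uninjured muscle, so each time point can only be set against another. The study describes the profiled cells as CD45+, CD11b+, F4/80+ and CD64+ macrophages of the digested muscle, and CD45 stained in the digest marks leukocytes that were still in the blood as well as those that had entered the tissue. It is not stated in these sources if a library held cells of a single mouse or of several, so the P values below measure the spread between these libraries, which may in part be technical.

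Glycolysis splits glucose into pyruvate in the cytosol without using oxygen. Lactate dehydrogenase interconverts pyruvate and lactate, which keeps the pathway supplied with NAD+, and monocarboxylate transporters carry the lactate out of or into the cell. In normal oxygen the prolyl hydroxylases of the Egln family mark HIF alpha subunits for destruction through the von Hippel-Lindau protein. When oxygen is scarce the alpha subunits persist, pair with Arnt and switch on glycolytic genes and other targets. Inflammatory macrophages are known to rely on glycolysis and to use HIF-1, and the study asked about lactate because it feeds a histone mark, lactylation. The transcript of a HIF subunit does not report on the amount of its protein, which is set largely by this degradation.

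The promoters of 5 members are shown because they carry the sequence that HIF recognises and because these genes moved in different ways below. Each is the 300 bases from 250 before to 50 after a RefSeq transcription start (GRCm38.p6), written 5′ to 3′ on the gene's own strand, with each copy of the HIF core motif in capitals. The core was searched as ACGTG and GCGTG on both strands, so that on the other strand it reads CACGT and CACGC, and CACGTG holds it on both strands and counts as 2.
Slc16a3, chr11:120948817-120949116, plus strand: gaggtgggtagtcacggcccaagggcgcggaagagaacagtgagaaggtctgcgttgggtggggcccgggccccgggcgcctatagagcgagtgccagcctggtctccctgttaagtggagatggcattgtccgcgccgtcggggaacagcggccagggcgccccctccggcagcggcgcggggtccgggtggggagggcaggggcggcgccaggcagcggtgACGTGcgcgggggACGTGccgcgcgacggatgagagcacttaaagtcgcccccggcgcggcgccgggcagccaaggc
Pgk1, chrX:106186850-106187149, plus strand: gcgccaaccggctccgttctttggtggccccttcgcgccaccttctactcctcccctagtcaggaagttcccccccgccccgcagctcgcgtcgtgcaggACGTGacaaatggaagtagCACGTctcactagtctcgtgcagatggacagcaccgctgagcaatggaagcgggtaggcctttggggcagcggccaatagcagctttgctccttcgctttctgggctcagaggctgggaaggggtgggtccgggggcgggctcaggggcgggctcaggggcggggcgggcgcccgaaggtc
Ldha, chr7:46845554-46845853, plus strand: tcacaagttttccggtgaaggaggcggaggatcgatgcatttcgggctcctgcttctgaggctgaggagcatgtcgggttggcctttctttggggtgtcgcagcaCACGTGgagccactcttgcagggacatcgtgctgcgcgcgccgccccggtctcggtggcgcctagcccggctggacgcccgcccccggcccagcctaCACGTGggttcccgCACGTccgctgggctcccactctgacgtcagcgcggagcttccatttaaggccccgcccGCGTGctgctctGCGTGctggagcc
Bnip3, chr7:138909457-138909756, minus strand: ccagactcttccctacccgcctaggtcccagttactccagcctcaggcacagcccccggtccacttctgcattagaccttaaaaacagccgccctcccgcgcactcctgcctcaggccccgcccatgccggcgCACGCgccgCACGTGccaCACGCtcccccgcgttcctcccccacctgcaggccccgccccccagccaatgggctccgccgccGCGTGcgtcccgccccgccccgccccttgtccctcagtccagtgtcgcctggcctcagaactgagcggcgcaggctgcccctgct
Ldhb, chr6:142507908-142508207, minus strand: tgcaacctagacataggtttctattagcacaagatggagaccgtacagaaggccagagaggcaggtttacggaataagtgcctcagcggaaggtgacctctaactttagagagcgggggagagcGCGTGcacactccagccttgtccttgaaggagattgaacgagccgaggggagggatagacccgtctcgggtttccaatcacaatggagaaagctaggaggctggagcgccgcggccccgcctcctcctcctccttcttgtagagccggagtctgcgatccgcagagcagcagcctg
Slc16a3 and Pgk1 each had 2 copies in this window, Ldha 7, Bnip3 5 and Ldhb 1. Of the 43 members 40 had a promoter window in the RefSeq table, and 36 of these 40 (90%) had at least 1 copy in at least 1 window, against 6677 of 10035 tested genes (66.5%). Among members that fell from 1 to 7 dpi the number was 25 of 27, and among those that did not fall it was 11 of 13. Most members of either kind thus held it, and a match of so short a sequence describes the letters only and does not show that HIF binds there. The members were chosen in part as HIF targets. They had 56 windows for 40 genes, beside 32851 for 27025 genes in all, and more windows give a gene more chances of a copy. The shares of members and tested genes are therefore no test of the members.

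Levels are given as CPM, the counts of a gene relative to the library total after scaling with edgeR's TMM factors. Values of a time point stand in the order of replicates 1, 2 and 3. Library totals lay between 19528316 and 33599472 counts, of which a single gene without a symbol in the tables used took 14.8 to 55.7%. Its share was 52.9 to 55.7% at 1 dpi and 14.8 to 30.1% at 7 dpi. The TMM factors were 0.652 to 0.725 at 1 dpi and 1.35 to 1.70 at 7 dpi, so the scaling differed with time. A differentially expressed gene (DEG) had an adjusted P under 0.05 and an absolute log2FC above 1 in edgeR's quasi-likelihood test, fitted on all 14310 genes that passed the low-count filter. All 43 members passed it. A log2FC is given ± its standard error. Time points whose libraries do not overlap were common among all tested genes. The later libraries lay wholly below the earlier ones in 18.5% of them from 1 to 2 dpi and 21.8% from 2 to 4 dpi. The share was 20.7% from 4 to 7 dpi and 25.9% from 1 to 7 dpi. They lay wholly above in 20.9, 22.3, 19.3 and 30.0% in the same order. In these bulk libraries, fewer cells of a type and less RNA per cell cannot be told apart. The macrophage markers summed to 5657 to 6766 CPM at 1 dpi and 10114 to 14821 CPM at 7 dpi, and all 8 of 8 were detected. They did not move one way, since from 1 to 7 dpi 4 rose (Adgre1, Csf1r, Lyz2 and Mertk) and 2 fell. The latter were Itgam (log2FC = -2.33, adjusted P = 1.71e-07) and Fcgr1 (log2FC = -1.63, adjusted P = 1.7e-05), which encode the sort markers CD11b and CD64. The 10 neutrophil markers, of which 6 passed the filter, summed to 212 to 349 CPM at 1 dpi, then 88.6 to 128 at 2 dpi, 88.2 to 166 at 4 dpi and lastly 44.9 to 161 at 7 dpi. S100a8, a gene of this list, stood at 38.7, 16.8 and 10.6 CPM at 1 dpi and was listed at 0 in every 7 dpi library. Ly6g, another, had no count from 2 dpi on. It was not tested if the RNA of the listed genes came from neutrophils alone. The sum of the 9 fibroblast markers went from 14.9 to 53.1 CPM at 1 dpi to 428 to 848 at 7 dpi, and that of the 19 muscle fibre markers, 16 of which passed the filter and 1 of which (Tnnc2) had no count, from 13.8 to 26.9 to 66.96 to 158. The part of these other cells in the results below was not tested, except where a value is given.

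Replicate 1 of both 1 and 4 dpi stood apart in these genes. At 1 dpi, replicate 1 was the highest of the 3 libraries for 31 of the 43 members, while it was the highest for 36.4% of all tested genes. At 4 dpi, replicate 1 was the highest for 32 of 43, against 39.3% of all tested genes. The median member lay 0.37 log2 CPM above the mean of the other replicates in 1 dpi replicate 1 and 0.79 above it in 4 dpi replicate 1, and the corresponding medians over all genes were -0.02 and 0.03. At 7 dpi, replicate 3 was the highest for 21 of 43 members, against 35.5% of all genes. These 3 libraries were also those with the highest neutrophil marker sum of their time point. S100a8 stood at 1.09, 0.444 and 0 CPM at 4 dpi, and so was highest in replicate 1 of both 1 and 4 dpi. Mmp9, another gene of the list and a protease that macrophages can make too, stood at 146, 111 and 61.9 CPM at 1 dpi, 103, 5.95 and 18.7 at 4 dpi and 1.4, 2.4 and 108 at 7 dpi, with its highest value in the same 3 libraries. Mmp9 held 103 of the 166 CPM of the neutrophil sum in 4 dpi replicate 1 and 108 of the 161 CPM in 7 dpi replicate 3. In 4 dpi replicates 2 and 3 the sums were 88.2 and 92.5 CPM. Without Mmp9 the rest of the sum was thus lowest in replicate 1 at 4 dpi, while at 1 and 7 dpi it stayed highest in the same libraries. The part of neutrophil RNA in these libraries standing apart was not tested. The share of mitochondrial genes in the counts without the largest gene also differed between libraries. It was 9.43, 8.51 and 10.2% at 1 dpi, 6.26, 12.5 and 11.4% at 4 dpi and 6.62, 18.9 and 9.47% at 7 dpi, so that it was lowest in 4 dpi replicate 1 and highest in 7 dpi replicate 2 of their time points, and its part was not tested. With the mitochondrial genes left out, the count of members that fell from 1 to 7 dpi was again 29. This changes the library totals and their scaling, and the comparison leaves 4 dpi aside, so the part of that share stays untested. Where the call of a member changed without 1 of these libraries, its value without that library is given below. Other folds of members, and their order by fold, are given with all libraries only. They may rest in part on these libraries.

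**Figure D1:**
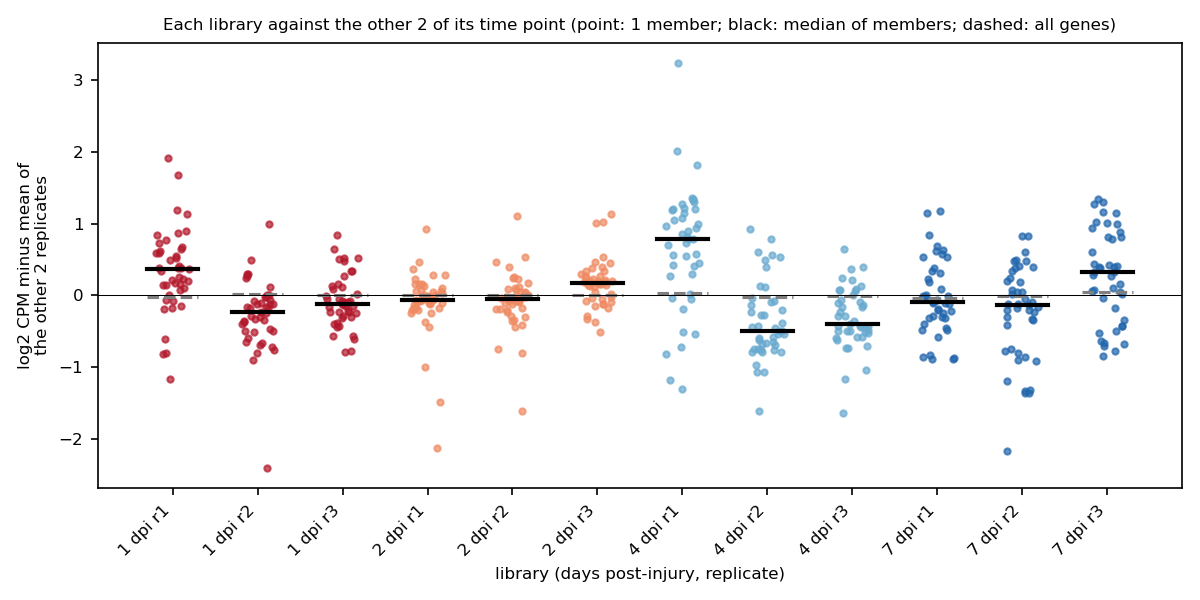
Each point is a member gene in one library, placed by its log2 CPM minus the mean of the other 2 replicates of that time point; the black bar is the median of the 43 members and the dashed bar that of all tested genes. The black bar stands at 0.37 in 1 dpi replicate 1 and at 0.79 in 4 dpi replicate 1, while the dashed bars stay near 0.

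Most of the members fell from 1 to 7 dpi. In this comparison 29 of 43 were downregulated and 3 were upregulated, while 14% of all tested genes were downregulated and 19.7% upregulated. The median log2FC of the members was -1.82, against 0.16 for all genes tested. By the adjusted P alone, 31 members were lower and 5 higher, where 23.3% and 25% of all genes were. The 3 that rose were Pfkm, Ldhb and Epas1. The count of those that fell was between 27 and 29 when each library in turn was left out, and the median without 1 dpi replicate 1 was -1.48.

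The fall was spread over the 3 steps, and the step from 4 to 7 dpi held the most DEGs. From 1 to 2 dpi, 7 members fell and 1 rose, beside 3.97% and 5.09% of all genes, and 8 were lower and 1 higher by adjusted P alone, beside 5.6% and 6.89%. From 2 to 4 dpi, 5 fell and 2 rose, beside 3.88% and 8.02%, and 9 were lower and 4 higher by adjusted P alone, beside 8.7% and 10.8%. From 4 to 7 dpi, 17 fell and 1 rose, beside 5.2% and 7.44%, and 19 were lower and 1 higher by adjusted P alone, beside 14.6% and 10.9%. The median log2FC of the members in these steps was -0.49, -0.45 and -0.65, against 0.01, 0.04 and -0.03 for all genes. No member was a DEG in all 3 steps, 6 fell in 2 of them, and 6 that fell from 1 to 7 dpi passed the test in no single step. Successive steps share the libraries of the time point between them. How the fall divided over the last 2 steps rested on 4 dpi replicate 1, because without it 14 members fell from 2 to 4 dpi, at a median of -0.84, while 9 did from 4 to 7 dpi. Without 4 dpi replicate 2 or 3, or without 2 dpi replicate 1 or 3, 2 members fell from 2 to 4 dpi. The number was 3 without 2 dpi replicate 2. From 1 to 2 dpi, 4 fell without 1 dpi replicate 1 or 2 dpi replicate 3, and 3 fell without 2 dpi replicate 1 or 2.

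**Figure D2:**
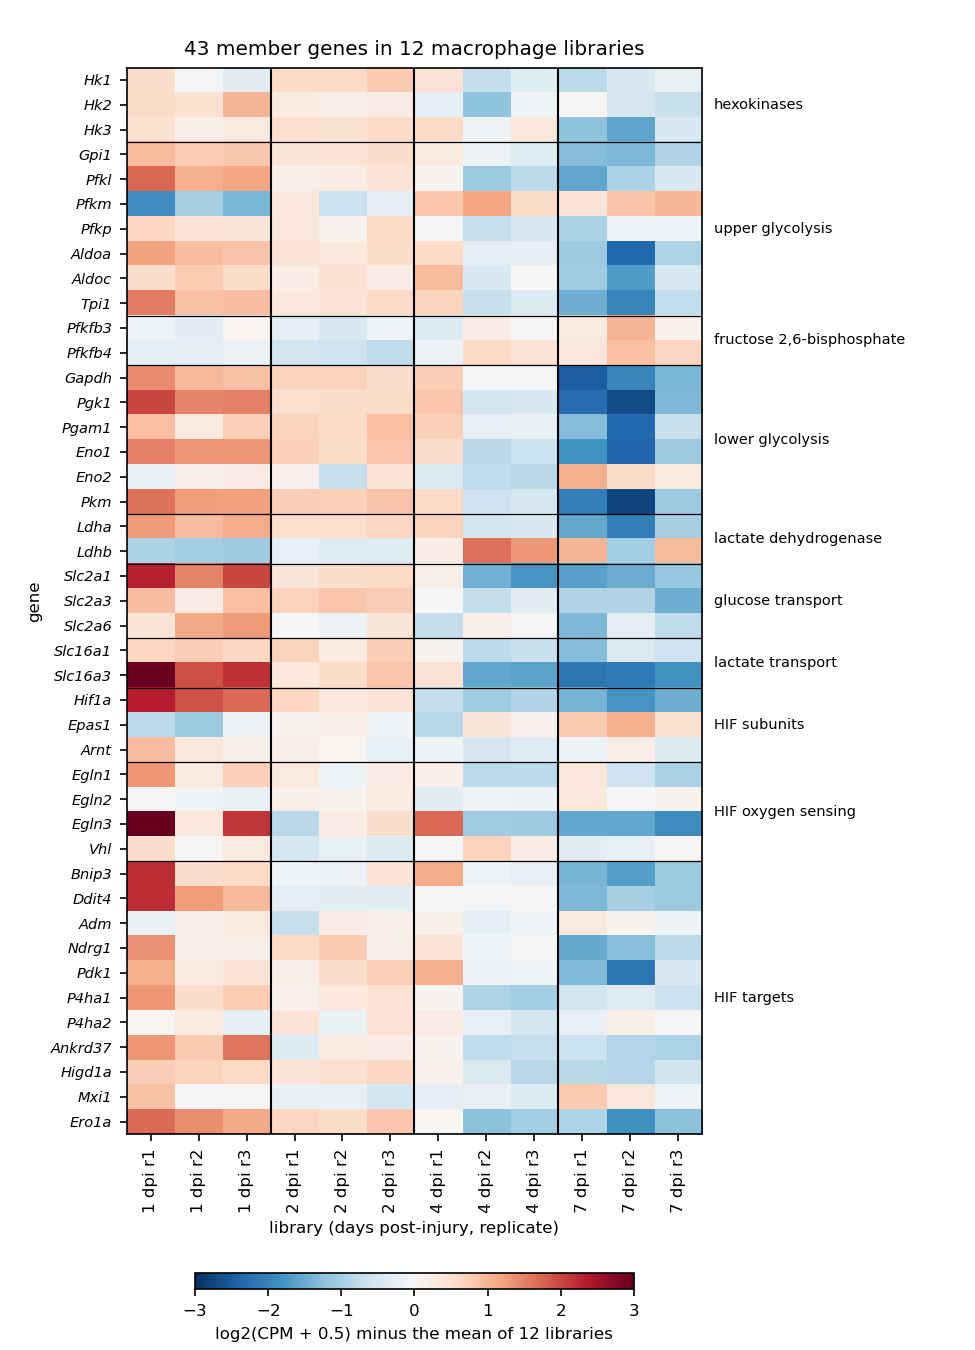
Colour gives log2(CPM + 0.5) of each of the 43 members (rows, grouped by role) in each of the 12 libraries (columns), minus the member's mean over all libraries, and deviations past 3 share the end colour. Most rows run from red at 1 dpi to blue at 7 dpi, Pfkm, Ldhb and Epas1 run the other way, and 4 dpi replicate 1 is redder than the other 4 dpi libraries.

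**Figure D3:**
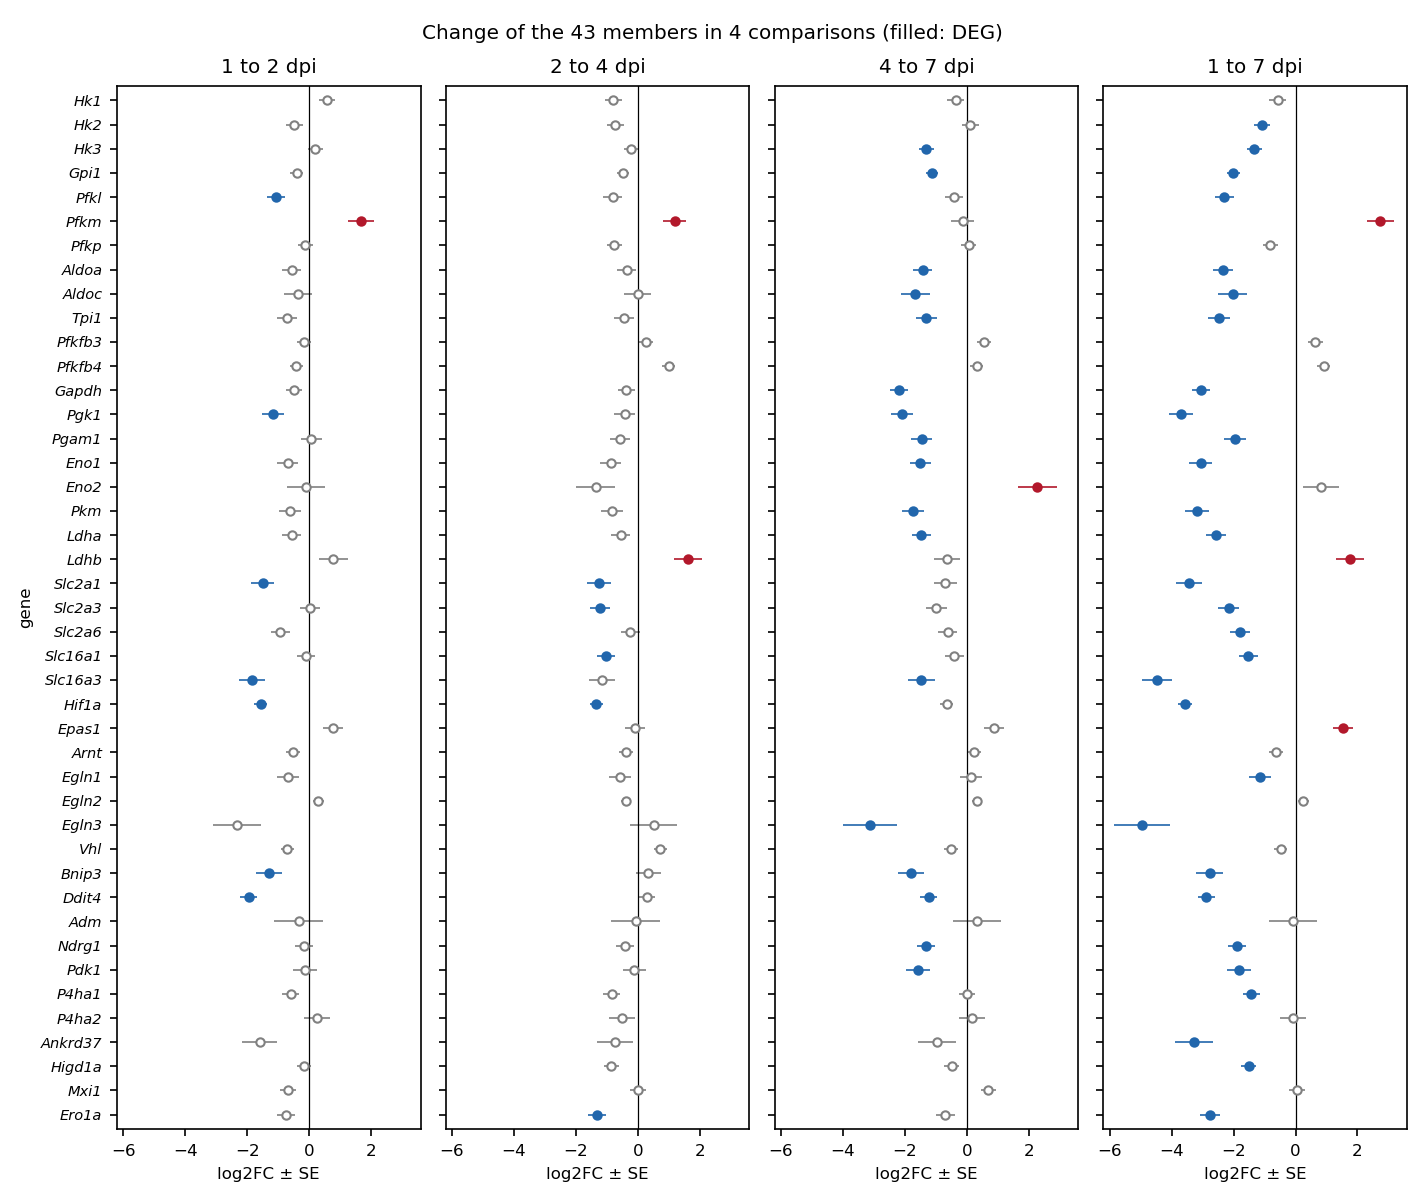
The log2FC of each member with its SE in 4 comparisons, with filled blue points for DEGs that fell, filled red points for DEGs that rose and open points for the rest. From 1 to 7 dpi 29 points are blue and 3 are red, and most blue points of the successive steps, 17, lie in the step from 4 to 7 dpi.

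Hexokinases trap glucose in the cell by phosphorylating it, and 2 of the 3 measured fell from 1 to 7 dpi. Hk3, a form typical of myeloid cells, stood at 121, 101 and 105 CPM at 1 dpi, 122, 122 and 132 at 2 dpi, 129.97, 82.04 and 109.8 at 4 dpi and 37.5, 29.1 and 63.4 at 7 dpi. It kept about the same level up to 4 dpi, and all 7 dpi libraries lay below all others. The fall was called from 4 to 7 dpi (log2FC of -1.31 ± 0.25, adjusted P = 0.00203) and from 1 to 7 dpi (log2FC of -1.34 ± 0.25, adjusted P = 0.000333). Hk2, the inducible form, ranged over 20.2 to 29.8 CPM at 1 dpi, 16.4 to 17.8 at 2 dpi, 5.95 to 13.3 at 4 dpi and 8.99 to 14.7 at 7 dpi. It fell from 1 to 7 dpi (log2FC = -1.08, adjusted P = 0.0036). The change came short of the threshold of 1 without 1 dpi replicate 3 (-0.82, adjusted P = 0.0351), 7 dpi replicate 2 (-0.98, adjusted P = 0.0178) or 7 dpi replicate 3 (-0.93, adjusted P = 0.0205), and also without the gene with the largest counts (-0.99, adjusted P = 0.00688) or with halved counts (-0.99, adjusted P = 0.00512). Hk1, the form found in most tissues, ranged over 36.9 to 67.3 CPM at 1 dpi, 69.9 to 80.4 at 2 dpi, 28.1 to 62.6 at 4 dpi and 26.3 to 39.4 at 7 dpi. It was a DEG in no comparison, and its difference from 2 to 4 dpi (log2FC = -0.80) passed the threshold without 4 dpi replicate 1 (-1.20, adjusted P = 0.00236).

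Of the 7 members of upper glycolysis, the steps from glucose 6-phosphate to the triose phosphates, 5 fell from 1 to 7 dpi, Pfkm rose and Pfkp did not pass. Gpi1, which converts glucose 6-phosphate to fructose 6-phosphate, stood at 439, 384 and 396 CPM at 1 dpi, 292, 304 and 327 at 2 dpi, 279, 203 and 176 at 4 dpi and 91.5, 89.7 and 122 at 7 dpi. Each time point lay wholly below the one before it, most narrowly at 4 dpi, where replicate 1 was just under the lowest 2 dpi library. Gpi1 fell from 1 to 7 dpi (log2FC of -2.01 ± 0.21, adjusted P = 1.72e-06) and from 4 to 7 dpi (log2FC of -1.12 ± 0.20, adjusted P = 0.00168). The latter call was lost without 4 dpi replicate 1, where the change fell short of the threshold of 1 (-0.92, adjusted P = 0.00679).

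Phosphofructokinase commits the sugar to glycolysis, and its 3 genes moved apart. Pfkl, the liver-type subunit, stood at 204, 131 and 139.7 CPM at 1 dpi, 69.4, 73.7 and 83.5 at 2 dpi, 65.3, 28.1 and 34.99 at 4 dpi and 20.5, 31.5 and 44.97 at 7 dpi. Every 1 dpi library lay above every later one. Pfkl fell from 1 to 2 dpi (log2FC of -1.07 ± 0.30, adjusted P = 0.0283) and from 1 to 7 dpi (log2FC of -2.29 ± 0.31, adjusted P = 2.43e-05). The first of these calls was lost without 1 dpi replicate 1 or without any of the 2 dpi replicates (log2FC -1.14 to -0.83, adjusted P 0.0678 to 0.131). A fall from 2 to 4 dpi was called when 4 dpi replicate 1 was left out (-1.26, adjusted P = 0.00382). Pfkm, the muscle-type subunit, was low throughout and rose, at 0.314, 0.985 and 0.646 CPM at 1 dpi, 3.19, 1.39 and 1.94 at 2 dpi, 4.78, 6.26 and 3.86 at 4 dpi and 3.4, 4.87 and 5.37 at 7 dpi. These are 4 to 190 counts a library, and no 1 dpi library reached the lowest at 2 dpi. It rose from 1 to 2 dpi (log2FC of 1.68 ± 0.43, adjusted P = 0.0166), from 2 to 4 dpi (log2FC of 1.18 ± 0.39, adjusted P = 0.0408) and from 1 to 7 dpi (log2FC of 2.73 ± 0.43, adjusted P = 8.27e-05). The call from 1 to 2 dpi was lost without 1 dpi replicate 1 or 3 or 2 dpi replicate 1 (log2FC 1.30 to 1.65, adjusted P 0.0546 to 0.0997), and with limma-voom (1.67, adjusted P = 0.105). That from 2 to 4 dpi was lost without 2 dpi replicate 2 or 3 or any 4 dpi replicate (log2FC 0.95 to 1.33, adjusted P 0.0544 to 0.173). In sum the muscle fibre markers stood at 13.8 to 26.9 CPM at 1 dpi and 17.02 to 21.6 at 2 dpi. They reached 22.5 to 33.5 CPM at 4 dpi and 66.96 to 158 at 7 dpi. The 7 muscle stem cell markers, all of which passed the filter, summed to 0.498 to 1.28 CPM at 2 dpi and 7.72 to 11.2 CPM at 4 dpi. The part of RNA of these cells in the rise of Pfkm was not tested. Pfkp, the platelet-type subunit, ranged over 66.8 to 79.3 CPM at 1 dpi, 55.6 to 76.9 at 2 dpi, 31.6 to 49.4 at 4 dpi and 26.4 to 49.1 at 7 dpi, with an adjusted P of 0.00862 from 1 to 7 dpi at a log2FC of -0.81, short of the threshold of 1.

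Aldolase and triose phosphate isomerase make the 3-carbon intermediates. Aldoa, the main aldolase here, stood at 1095, 888 and 849 CPM at 1 dpi, 641, 588 and 692 at 2 dpi, 712, 392 and 393 at 4 dpi and 219, 92.8 and 246 at 7 dpi. The 7 dpi libraries lay below all others, and 4 dpi replicate 1 was above all of the 2 dpi libraries. Aldoa fell from 4 to 7 dpi (log2FC of -1.42 ± 0.31, adjusted P = 0.00477) and from 1 to 7 dpi (log2FC of -2.34 ± 0.32, adjusted P = 2.34e-05). Tpi1 stood at 458, 294 and 301 CPM at 1 dpi, 197, 209.7 and 237 at 2 dpi, 253, 101 and 119 at 4 dpi and 56.9, 39.3 and 94.97 at 7 dpi. It had the same order as Aldoa, with 4 dpi replicate 1 above the 2 dpi libraries. Tpi1 fell from 4 to 7 dpi (log2FC of -1.30 ± 0.34, adjusted P = 0.0119) and from 1 to 7 dpi (log2FC of -2.46 ± 0.35, adjusted P = 3.42e-05). The former call was lost without 4 dpi replicate 1 (-0.80, adjusted P = 0.0736) or 7 dpi replicate 2 (-1.04, adjusted P = 0.057). Aldoc, the brain-type aldolase, ranged over 3.77 to 4.56 CPM at 1 dpi, 3.005 to 3.58 at 2 dpi, 1.69 to 5.29 at 4 dpi and 0.431 to 1.64 at 7 dpi. Its level fell from 4 to 7 dpi (log2FC = -1.66, adjusted P = 0.0169) and from 1 to 7 dpi (log2FC = -2.02, adjusted P = 0.00204). The former call needed 4 dpi replicate 1 and 7 dpi replicates 1 and 2, and was lost without any of them (log2FC -1.61 to -1.06, adjusted P 0.0532 to 0.126) or in a fit of the 6 libraries compared (-1.60, adjusted P = 0.074).

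The bifunctional enzymes encoded by Pfkfb3 and Pfkfb4 make and break fructose 2,6-bisphosphate, the strongest activator of phosphofructokinase, and neither fell. Pfkfb3 ranged over 37.3 to 48.5 CPM at 1 dpi, 33.3 to 43.7 at 2 dpi, 35.2 to 54.2 at 4 dpi and 50.7 to 94.5 at 7 dpi and Pfkfb4 over 18.4 to 20.2 CPM at 1 dpi, 13.2 to 15.2 at 2 dpi, 19.96 to 34.9 at 4 dpi and 28.8 to 42.7 at 7 dpi. Pfkfb4 was higher at 4 than at 2 dpi, with the 2 dpi libraries all below the 4 dpi ones, and its log2FC of 0.99 (adjusted P = 0.00394) narrowly missed the threshold of 1. It passed it without 4 dpi replicate 1, 2 dpi replicate 1 or 2, or any of the 1 and 7 dpi replicates (log2FC 1.01 to 1.20, adjusted P 0.000339 to 0.0179). With all libraries, DESeq2 called this rise (1.03, adjusted P = 0.000279), as did RLE in place of TMM scaling (1.03, adjusted P = 0.00373). Halved counts, another low-count filter, a fit of the 6 libraries compared and leaving out mitochondrial genes did so too. It was not called with limma-voom, the replicate block, no low-count filter or without the gene with the largest counts. Its log2FC from 1 to 7 dpi was 0.92, adjusted P = 0.0021, and the threshold was passed without 1 dpi replicate 3 or 7 dpi replicate 1 (log2FC 1.02 to 1.06, adjusted P 0.00122 to 0.00451). 

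The lower part of the pathway, from glyceraldehyde 3-phosphate to pyruvate, fell in nearly all of its members. Of the 6, 5 fell both from 4 to 7 dpi and from 1 to 7 dpi, with a median log2FC of -1.61 and -3.05, and only Pgk1 also fell from 1 to 2 dpi. Pkm, the pyruvate kinase that ends the pathway, stood at 2838, 2203 and 2135 CPM at 1 dpi, 1523, 1504 and 1672 at 2 dpi, 1379, 594 and 649 at 4 dpi and 223, 136 and 429 at 7 dpi. The lowest 1 dpi library had 2135 CPM and the highest 7 dpi library 429 CPM. Pkm fell from 4 to 7 dpi (log2FC of -1.74 ± 0.37, adjusted P = 0.00393) and from 1 to 7 dpi (log2FC of -3.19 ± 0.39, adjusted P = 8.15e-06). Without 4 dpi replicate 1 it also fell from 2 to 4 dpi (-1.34, adjusted P = 0.01). Counts per gene do not separate the M1 and M2 splice forms of its product.

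Pgk1, which makes the first ATP of the pathway, stood at 794, 546 and 564 CPM at 1 dpi, 274, 283 and 289 at 2 dpi, 349.7, 134 and 145 at 4 dpi and 39.999, 30.5 and 77.3 at 7 dpi. All 2 dpi libraries lay below all 1 dpi libraries, and 4 dpi replicate 1 lay above the 2 dpi libraries while its companions lay below them. Pgk1 fell from 1 to 2 dpi (log2FC of -1.17 ± 0.35, adjusted P = 0.0384), from 4 to 7 dpi (log2FC of -2.09 ± 0.36, adjusted P = 0.00142) and from 1 to 7 dpi (log2FC of -3.69 ± 0.39, adjusted P = 2.03e-06). The call from 1 to 2 dpi was lost without any one of the 1 and 2 dpi libraries (log2FC -1.25 to -0.96, adjusted P 0.0551 to 0.144). A fall from 2 to 4 dpi was called when 4 dpi replicate 1 was left out (-1.02, adjusted P = 0.0228).

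Eno1, the enolase of most tissues, stood at 2592, 2254 and 2266 CPM at 1 dpi, 1487, 1322 and 1605 at 2 dpi, 1311, 507 and 579 at 4 dpi and 256, 174 and 422 at 7 dpi. All 7 dpi libraries lay below all others, and 4 dpi replicate 1 was more than double its companions. Eno1 fell from 4 to 7 dpi (log2FC of -1.49 ± 0.34, adjusted P = 0.00615) and from 1 to 7 dpi (log2FC of -3.06 ± 0.36, adjusted P = 6.3e-06). Without 4 dpi replicate 1 the order of calls changed, with a fall from 2 to 4 dpi (-1.44, adjusted P = 0.00217) and no call from 4 to 7 dpi (-0.95, adjusted P = 0.0333). The fall from 2 to 4 dpi was also called by limma-voom with all libraries (-1.02, adjusted P = 0.0317). Pgam1, the phosphoglycerate mutase, stood at 242, 160.1 and 214 CPM at 1 dpi, 207, 197 and 244 at 2 dpi, 212, 109 and 112 at 4 dpi and 52.1, 25.4 and 81.4 at 7 dpi. It did not move from 1 to 2 dpi beyond the spread of its replicates (log2FC = 0.07, adjusted P = 0.919). The later falls of Pgam1 were called from 4 to 7 dpi (log2FC of -1.45 ± 0.34, adjusted P = 0.00683) and from 1 to 7 dpi (log2FC of -1.95 ± 0.34, adjusted P = 0.000216).

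Gapdh, which makes the first reducing equivalents of the pathway and is often used as a reference gene, stood at 118, 86.7 and 81.3 CPM at 1 dpi, 69.3, 71.1 and 63.3 at 2 dpi, 72.7, 42.4 and 42.1 at 4 dpi and 7.45, 10.7 and 16.5 at 7 dpi. It had no steady level, since the 7 dpi libraries lay below all others. It fell from 4 to 7 dpi (log2FC of -2.18 ± 0.28, adjusted P = 0.000296) and from 1 to 7 dpi (log2FC of -3.04 ± 0.29, adjusted P = 8.19e-07). Its level is uncertain, because 170 annotated pseudogenes are at least 90% identical to it over at least 50% of their length. Together they held 10133 counts, 63.5% of the 15945 counted for Gapdh itself. Summed, these copies stood at 78.3, 53.6 and 56.9 CPM at 1 dpi and 9.12, 11.9 and 12.2 CPM at 7 dpi, so that they were lower at 7 dpi too. For the other 12 members with such copies, they held at most 1.59% of the gene's own counts.

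Eno2, the neuronal enolase, was the only member that rose from 4 to 7 dpi (log2FC of 2.28 ± 0.63, adjusted P = 0.0161). It ranged over 0.629 to 1.02 CPM at 1 dpi, 0.299 to 1.25 at 2 dpi, 0.22 to 0.454 at 4 dpi and 1.07 to 2.24 at 7 dpi, which is 5 to 83 counts a library. The call was lost without 4 dpi replicate 3 (2.07, adjusted P = 0.0586) or 7 dpi replicate 1 (1.93, adjusted P = 0.0667). From 1 to 7 dpi it did not pass (log2FC = 0.82, adjusted P = 0.267).

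The 2 lactate dehydrogenase genes moved in opposite directions. Ldha, the subunit that prevails in glycolytic tissues, stood at 1141, 904 and 1014 CPM at 1 dpi, 664, 667 and 739.99 at 2 dpi, 751, 317 and 344 at 4 dpi and 162, 113 and 238 at 7 dpi. All 2 dpi libraries lay below all 1 dpi libraries and all 7 dpi libraries below all others. Ldha fell from 4 to 7 dpi (log2FC of -1.46 ± 0.31, adjusted P = 0.00408) and from 1 to 7 dpi (log2FC of -2.57 ± 0.32, adjusted P = 1.05e-05). Without 4 dpi replicate 1 its fall was called from 2 to 4 dpi (-1.06, adjusted P = 0.00773) and not from 4 to 7 dpi (-0.97, adjusted P = 0.0188). Ldhb, the subunit that prevails in oxidative tissues such as heart, stood at 2.83, 2.63 and 2.49 CPM at 1 dpi, 4.88, 4.38 and 4.37 at 2 dpi, 6.96, 19.7 and 15.2 at 4 dpi and 12.5, 2.65 and 11.8 at 7 dpi. The 1, 2 and 4 dpi libraries did not overlap, whereas at 7 dpi replicate 2 was back at the level of 1 dpi. Ldhb rose from 2 to 4 dpi (log2FC of 1.61 ± 0.44, adjusted P = 0.017) and from 1 to 7 dpi (log2FC of 1.77 ± 0.46, adjusted P = 0.00457). The former call was lost without any of the 2 dpi replicates or 4 dpi replicate 2 or 3 (log2FC 1.28 to 1.68, adjusted P 0.0504 to 0.0954). With limma-voom both calls were lost (1.44, adjusted P = 0.06 and 1.499, adjusted P = 0.0683).

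All 3 glucose transporters and both monocarboxylate transporters fell from 1 to 7 dpi. Slc2a1, which encodes the widespread glucose transporter GLUT1, stood at 165, 91.1 and 131 CPM at 1 dpi, 41.6, 46.4 and 49.1 at 2 dpi, 36.5, 11.5 and 9.13 at 4 dpi and 10.1, 11.1 and 14.4 at 7 dpi. The 1 and 2 dpi libraries were apart, and at 4 dpi replicate 1 was the highest, with its companions at the level of 7 dpi. Slc2a1 fell from 1 to 2 dpi (log2FC of -1.495 ± 0.38, adjusted P = 0.0147), from 2 to 4 dpi (log2FC of -1.25 ± 0.38, adjusted P = 0.0279) and from 1 to 7 dpi (log2FC of -3.44 ± 0.41, adjusted P = 6.44e-06). The call from 1 to 2 dpi was lost without 1 dpi replicate 1 and without 2 dpi replicate 1 or 2 (log2FC -1.500 to -1.27, adjusted P 0.0521 to 0.0647). That from 2 to 4 dpi was lost without any of the 2 dpi replicates or 4 dpi replicate 2 or 3 (log2FC -1.30 to -0.92, adjusted P 0.058 to 0.127), and in a fit of the 6 libraries compared (-1.23, adjusted P = 0.0507). A fall from 4 to 7 dpi was called when 4 dpi replicate 3 was left out (-1.04, adjusted P = 0.0495).

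Slc2a3, which encodes GLUT3, a transporter with a high affinity for glucose, stood at 6.29, 3.78 and 6.18 CPM at 1 dpi, 5.26, 5.82 and 5.45 at 2 dpi, 3.02, 1.69 and 2.37 at 4 dpi and 1.4, 1.42 and 0.791 at 7 dpi. The first 2 time points overlapped and lay above the last 2. It fell from 2 to 4 dpi (log2FC of -1.21 ± 0.33, adjusted P = 0.016) and from 1 to 7 dpi (log2FC of -2.16 ± 0.34, adjusted P = 8.76e-05). The former call was lost without any of the 2 dpi replicates or 4 dpi replicate 2 or 3 (log2FC -1.23 to -1.03, adjusted P 0.0502 to 0.085). A fall from 4 to 7 dpi was called when 4 dpi replicate 2 was left out (-1.19, adjusted P = 0.0286). Slc2a6, a lysosomal member of the family, stood at 17.1, 28.6 and 31.6 CPM at 1 dpi, 12.7, 11.4 and 16.5 at 2 dpi, 7.56, 14.4 and 12.4 at 4 dpi and 4.7, 10.4 and 7.29 at 7 dpi. Unlike in Slc2a1 and Slc2a3, replicate 1 was the lowest library at 1 and 4 dpi. It fell from 1 to 7 dpi (log2FC of -1.79 ± 0.31, adjusted P = 0.000201), and from 1 to 2 dpi a fall was gained without 1 dpi replicate 1 (-1.14, adjusted P = 0.0337).

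Slc16a3 encodes MCT4, the transporter that glycolytic cells use to export lactate, and had the second largest fall of the members from 1 to 7 dpi by log2FC. It stood at 639, 314 and 377 CPM at 1 dpi, 103, 121 and 147 at 2 dpi, 110.1, 27.6 and 26.7 at 4 dpi and 17.9, 18.7 and 23.1 at 7 dpi. At 1 dpi replicate 1 was the highest, 2 dpi lay wholly below 1 dpi, and at 4 dpi replicate 1 was at the level of 2 dpi while the others were near that of 7 dpi. It fell from 1 to 2 dpi (log2FC of -1.84 ± 0.43, adjusted P = 0.0088), from 4 to 7 dpi (log2FC of -1.46 ± 0.42, adjusted P = 0.0203) and from 1 to 7 dpi (log2FC of -4.48 ± 0.48, adjusted P = 2.31e-06). Without 4 dpi replicate 1 the later fall was called from 2 to 4 dpi (-2.19, adjusted P = 3.26e-05) and not from 4 to 7 dpi (-0.47, adjusted P = 0.24). With all libraries, the fall from 2 to 4 dpi was also called by limma-voom (-1.48, adjusted P = 0.0133) and with no low-count filter (-1.16, adjusted P = 7.08e-06). The call from 4 to 7 dpi was also lost without 7 dpi replicate 1 (-1.40, adjusted P = 0.0669) or 2 (-1.41, adjusted P = 0.0732), with DESeq2 (-1.35, adjusted P = 0.0609) and in a fit of the 6 libraries compared (-1.40, adjusted P = 0.0562). Slc16a1, which encodes MCT1, a carrier with a higher affinity for lactate that works in both directions, ranged over 10.2 to 11.1 CPM at 1 dpi, 7.96 to 11.1 at 2 dpi, 3.55 to 6.96 at 4 dpi and 2.32 to 4.68 at 7 dpi. It fell from 2 to 4 dpi (log2FC = -1.03, adjusted P = 0.0213) and from 1 to 7 dpi (log2FC = -1.52, adjusted P = 0.000573). The former call was lost without 2 dpi replicate 1 or 3 or 4 dpi replicate 2 or 3 (log2FC -0.97 to -0.86, adjusted P 0.0809 to 0.107).

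**Figure D4:**
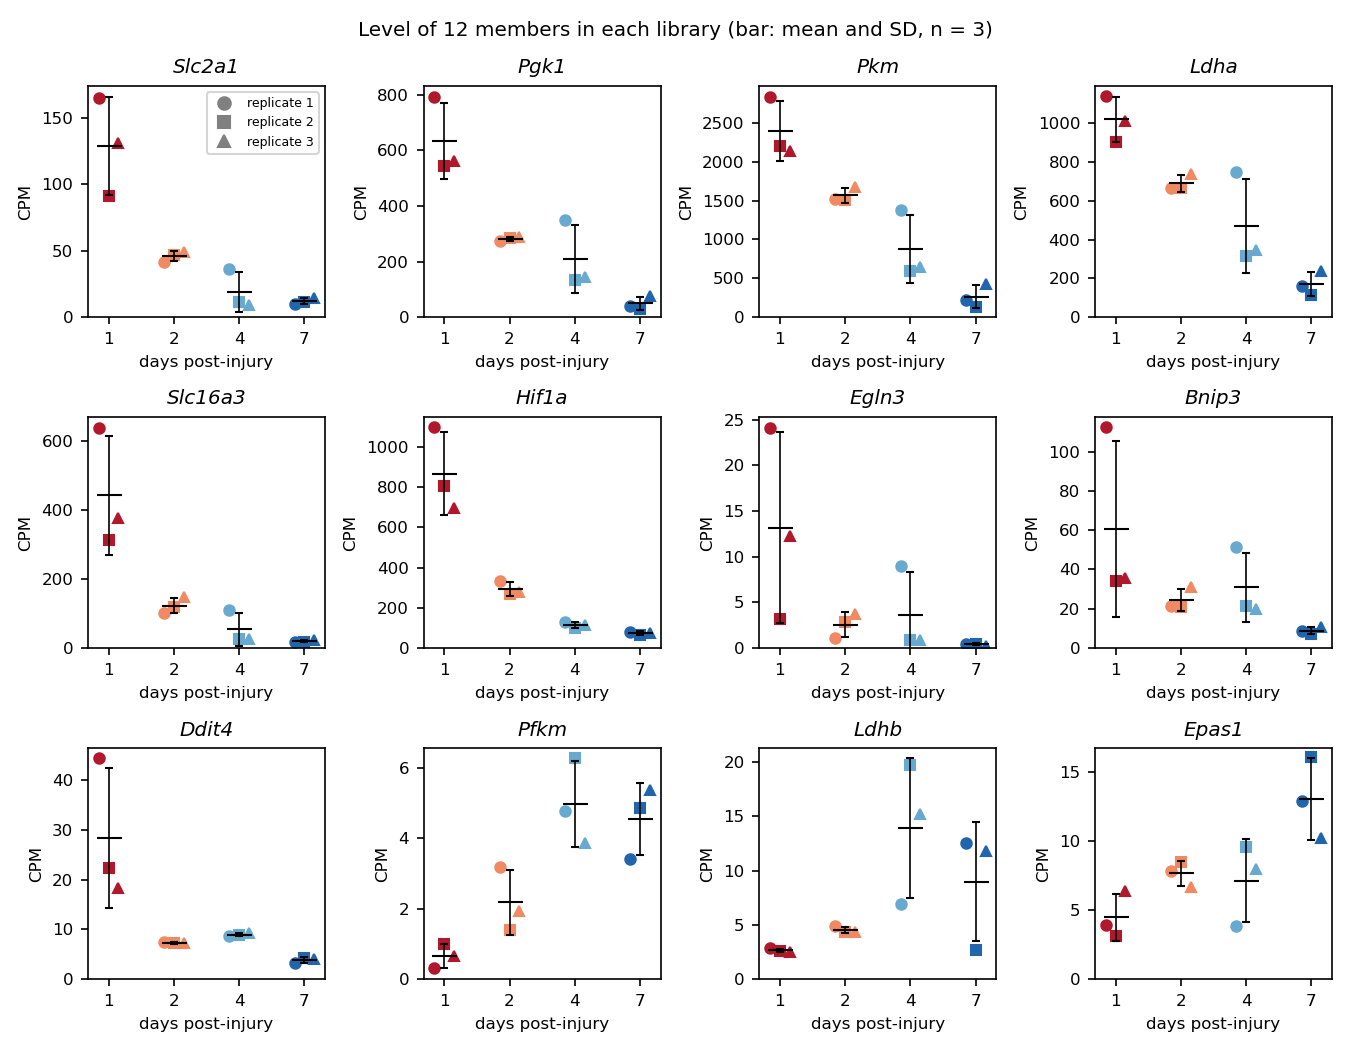
CPM of 12 members in each library by days post-injury, with a symbol for each replicate and bars for the mean and SD of 3 libraries. Slc16a3 starts at 314 to 639 CPM and ends at 17.9 to 23.1 CPM, Pfkm, Ldhb and Epas1 are higher at 7 than at 1 dpi in their mean, and replicate 1 is the highest at 1 and 4 dpi in Slc16a3, Egln3 and Bnip3.

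The HIF subunits moved apart. Hif1a, the alpha subunit of HIF-1, stood at 1097, 807 and 698 CPM at 1 dpi, 335, 267 and 280.1 at 2 dpi, 129.9, 101 and 115 at 4 dpi and 81.7, 62.7 and 76.8 at 7 dpi. Every time point lay wholly below the one before it, with no overlap at any step. Hif1a fell from 1 to 2 dpi (log2FC of -1.56 ± 0.21, adjusted P = 0.000176), from 2 to 4 dpi (log2FC of -1.35 ± 0.21, adjusted P = 0.000338) and from 1 to 7 dpi (log2FC of -3.55 ± 0.23, adjusted P = 2.87e-08). The last of these was the smallest adjusted P of the members in that comparison. From 4 to 7 dpi its log2FC was -0.65, adjusted P = 0.0303, short of the threshold of 1. Of its exonic length, 8.11% is shared with other annotated genes. Epas1, which encodes HIF-2 alpha and is abundant in endothelial cells, ranged over 3.12 to 6.37 CPM at 1 dpi, 6.67 to 8.46 at 2 dpi, 3.81 to 9.59 at 4 dpi and 10.2 to 16.1 at 7 dpi. It rose from 1 to 7 dpi (log2FC = 1.54, adjusted P = 0.00114). A rise from 4 to 7 dpi (log2FC = 0.88) was gained with limma-voom (1.01, adjusted P = 0.0187) or without 4 dpi replicate 2 (1.13, adjusted P = 0.0323) or 7 dpi replicate 3 (1.03, adjusted P = 0.0352). The 10 endothelial markers, all of which passed the filter, summed to 31.5 to 41.99 CPM at 1 dpi and 47.7 to 110.4 CPM at 7 dpi. The highest sum was in 7 dpi replicate 2, where Epas1 was highest too. The part of endothelial RNA in this rise was not tested. Arnt, the shared partner of both alpha subunits, ranged over 25.5 to 42.7 CPM at 1 dpi, 18.9 to 25.7 at 2 dpi, 15.6 to 19.9 at 4 dpi and 16.6 to 25.5 at 7 dpi and was a DEG in no comparison.

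Of the 4 oxygen-sensing genes, Egln3 and Egln1 fell from 1 to 7 dpi. Egln3, a prolyl hydroxylase that is itself a HIF target, stood at 24.05, 3.2 and 12.3 CPM at 1 dpi, 1.13, 2.89 and 3.73 at 2 dpi, 9.01, 0.888 and 0.878 at 4 dpi and 0.486, 0.493 and 0.283 at 7 dpi. Replicates 1 and 3 of 1 dpi and replicate 1 of 4 dpi were the highest, and the others were low, down to 10 counts at 7 dpi. It had the largest fall of the members from 1 to 7 dpi (log2FC of -4.94 ± 0.90, adjusted P = 0.000303), and it fell from 4 to 7 dpi (log2FC of -3.11 ± 0.87, adjusted P = 0.0168). The latter call was lost without 4 dpi replicate 1 (-1.08, adjusted P = 0.312), and also without 7 dpi replicate 1 (-3.24, adjusted P = 0.0503) or 2 (-3.23, adjusted P = 0.0576) and with limma-voom (-2.46, adjusted P = 0.168). From 1 to 2 dpi its log2FC was -2.34, adjusted P = 0.0584, and it was called without 1 dpi replicate 2 or any of the 4 dpi replicates (log2FC -2.80 to -2.33, adjusted P 0.00743 to 0.0433). That fall was also called in a fit of the 6 libraries compared (-2.35, adjusted P = 0.0153). The same held with halved counts (-2.34, adjusted P = 0.0494) and with no low-count filter (-2.32, adjusted P = 1.45e-09).

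Egln1, the main oxygen sensor, ranged over 15.9 to 33.4 CPM at 1 dpi, 12.05 to 16.2 at 2 dpi, 7.24 to 14.6 at 4 dpi and 6.61 to 16.9 at 7 dpi. It fell from 1 to 7 dpi (log2FC = -1.15, adjusted P = 0.0134), a call lost without 1 dpi replicate 1 or 7 dpi replicate 2 or 3 (log2FC -0.98 to -0.76, adjusted P 0.0615 to 0.111). Egln2, a related hydroxylase, ranged over 18.7 to 21.7 CPM at 1 dpi, 23.4 to 26.6 at 2 dpi, 17.5 to 20.1 at 4 dpi and 20.9 to 27.9 at 7 dpi, was a DEG in no comparison and had its largest absolute log2FC from 2 to 4 dpi (-0.38). Vhl, which encodes the von Hippel-Lindau protein, ranged over 19.9 to 28.4 CPM at 1 dpi, 13.4 to 16.6 at 2 dpi, 18.8 to 31.7 at 4 dpi and 15.2 to 19.98 at 7 dpi. Its adjusted P was 0.0435 from 1 to 2 dpi and 0.0273 from 2 to 4 dpi, with log2FC values of -0.70 and 0.72. Vhl thus had its lowest mean at 2 dpi without being a DEG.

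Of the 11 HIF targets outside glycolysis, 8 fell from 1 to 7 dpi and none rose, with a median log2FC of -1.82. Bnip3, which encodes a mitophagy receptor on the mitochondrial outer membrane, stood at 112, 33.98 and 35.9 CPM at 1 dpi, 21.6, 20.96 and 31.000 at 2 dpi, 51.3, 21.4 and 19.98 at 4 dpi and 8.72, 7.21 and 10.6 at 7 dpi. Replicate 1 was about triple its companions at 1 dpi and more than double them at 4 dpi, and apart from these 2 libraries the values of 1 to 4 dpi lay between 19.98 and 35.9 CPM. Bnip3 fell from 1 to 2 dpi (log2FC of -1.30 ± 0.42, adjusted P = 0.0498), from 4 to 7 dpi (log2FC of -1.81 ± 0.42, adjusted P = 0.00708) and from 1 to 7 dpi (log2FC of -2.77 ± 0.44, adjusted P = 8.64e-05). The call from 1 to 2 dpi was lost without 1 dpi replicate 1 (-0.50, adjusted P = 0.412), any of the 2 dpi replicates, 4 dpi replicate 3 or 7 dpi replicate 1 or 3 (log2FC -1.502 to -0.50, adjusted P 0.0501 to 0.412 over these). It was lost also with limma-voom (-1.06, adjusted P = 0.1) and without the gene with the largest counts (-1.27, adjusted P = 0.0529).

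Ddit4, which encodes the stress-induced inhibitor of mTORC1 known as REDD1, stood at 44.5, 22.3 and 18.3 CPM at 1 dpi, 7.51, 7.17 and 7.17 at 2 dpi, 8.77, 8.79 and 9.31 at 4 dpi and 3.29, 4.28 and 3.96 at 7 dpi. All 1 dpi libraries lay above all later ones, the 2 dpi libraries were just below those of 4 dpi (log2FC = 0.30, adjusted P = 0.473), and the 7 dpi libraries were the lowest. Ddit4 fell from 1 to 2 dpi (log2FC of -1.95 ± 0.27, adjusted P = 0.00024), from 4 to 7 dpi (log2FC of -1.22 ± 0.27, adjusted P = 0.00555) and from 1 to 7 dpi (log2FC of -2.88 ± 0.28, adjusted P = 1.21e-06), and none of these calls changed when a single library was left out. Ero1a, the oxidase that forms disulfide bonds in the endoplasmic reticulum, stood at 101, 82.7 and 69.5 CPM at 1 dpi, 48.6, 45.8 and 56.2 at 2 dpi, 32.2, 12.9 and 14.9 at 4 dpi and 16.03, 8.35 and 12.9 at 7 dpi. The first 3 time points were apart from each other, and 4 and 7 dpi overlapped. It fell from 2 to 4 dpi (log2FC of -1.32 ± 0.30, adjusted P = 0.00593) and from 1 to 7 dpi (log2FC of -2.76 ± 0.32, adjusted P = 4.54e-06).

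Ndrg1, a gene of differentiation and stress, stood at 105, 46.2 and 45.7 CPM at 1 dpi, 60.9, 69.5 and 45.8 at 2 dpi, 53.3, 38.4 and 40.7 at 4 dpi and 13.9, 16.3 and 23.01 at 7 dpi. The libraries of 1, 2 and 4 dpi overlapped and those of 7 dpi lay below them. Ndrg1 fell from 4 to 7 dpi (log2FC of -1.32 ± 0.30, adjusted P = 0.0059) and from 1 to 7 dpi (log2FC of -1.89 ± 0.30, adjusted P = 0.000101). Higd1a, a mitochondrial protein induced by hypoxia, stood at 15.7, 14.98 and 14.2 CPM at 1 dpi, 12.2, 13.1 and 14.6 at 2 dpi, 10.3, 6.75 and 4.96 at 4 dpi and 4.97, 4.81 and 5.99 at 7 dpi. Higd1a fell from 1 to 7 dpi (log2FC of -1.51 ± 0.24, adjusted P = 0.000102) and in no single step, but from 2 to 4 dpi a fall was gained without 4 dpi replicate 1 (-1.19, adjusted P = 0.00161). Ankrd37, a HIF-1 target with ankyrin repeats, stood at 2.91, 1.85 and 3.69 CPM at 1 dpi, 0.526, 1.14 and 1.11 at 2 dpi, 0.968, 0.311 and 0.351 at 4 dpi and 0.378, 0.246 and 0.226 at 7 dpi, which is 7 to 80 counts a library. The 1 dpi libraries were above all later ones, and it fell from 1 to 7 dpi (log2FC of -3.29 ± 0.61, adjusted P = 0.000362). From 1 to 2 dpi (log2FC = -1.60, adjusted P = 0.0763) a fall was called by DESeq2 (-1.64, adjusted P = 0.0293) and in a fit of the 6 libraries compared (-1.63, adjusted P = 0.021).

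Pdk1, the kinase that shuts pyruvate out of the mitochondrion by inhibiting pyruvate dehydrogenase, ranged over 32.3 to 57.2 CPM at 1 dpi, 30.5 to 43.7 at 2 dpi, 23.9 to 55.96 at 4 dpi and 5.51 to 19.2 at 7 dpi. It fell from 4 to 7 dpi (log2FC = -1.58, adjusted P = 0.00983), which was lost without 4 dpi replicate 1 (-1.06, adjusted P = 0.0568), and from 1 to 7 dpi (log2FC = -1.82, adjusted P = 0.00126). P4ha1, a collagen prolyl 4-hydroxylase subunit, ranged over 94.2 to 160.4 CPM at 1 dpi, 71.5 to 87.98 at 2 dpi, 31.3 to 68.5 at 4 dpi and 41.6 to 49.6 at 7 dpi. P4ha1 fell from 1 to 7 dpi (log2FC = -1.43, adjusted P = 0.000391), with a fall from 2 to 4 dpi gained without 4 dpi replicate 1 (-1.31, adjusted P = 0.000477). The remaining 3 HIF targets did not pass in any comparison. P4ha2, another such subunit, ranged over 1.38 to 2.3 CPM at 1 dpi, 1.49 to 2.58 at 2 dpi, 1.05 to 2.18 at 4 dpi and 1.43 to 2.09 at 7 dpi. Mxi1, an antagonist of Myc, ranged over 19.9 to 37.6 CPM at 1 dpi, 13.8 to 17.5 at 2 dpi, 15.2 to 17.4 at 4 dpi and 18.6 to 35.4 at 7 dpi. Adm, the precursor of adrenomedullin, ranged over 0.314 to 0.646 CPM at 1 dpi, 0.0751 to 0.597 at 2 dpi, 0.266 to 0.544 at 4 dpi and 0.339 to 0.648 at 7 dpi, which is 2 to 24 counts a library.

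Within several families of related genes, the balance shifted between paralogs. These shares divide each gene's counts by its exonic length (GENCODE M21), are given as mean ± SD of 3 libraries and describe levels without a test. Epas1 made up 0.579 ± 0.325% of the HIF alpha transcripts (Hif1a and Epas1) at 1 dpi, then 2.7 ± 0.469% at 2 dpi, 6.3 ± 3.07% at 4 dpi and lastly 15.9 ± 4.73% at 7 dpi. Hif1a therefore remained the larger share in every library, down to 78.7% in 7 dpi replicate 2. Ldhb made up 0.548 ± 0.0526% of Ldha and Ldhb at 1 dpi, then 1.37 ± 0.148% at 2 dpi, 7.34 ± 4.95% at 4 dpi and lastly 9.39 ± 4.64% at 7 dpi. In the 4 dpi libraries its share was 1.92% in replicate 1 and 11.6% and 8.51% in the others, so the spread between libraries exceeded the step from 4 to 7 dpi.

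Among the phosphofructokinase genes, Pfkl held 80.7 ± 2.7% at 1 dpi and 51.8 ± 4.59% at 7 dpi, Pfkp 18.6 ± 2.25% and 33.1 ± 3.88%, and Pfkm 0.723 ± 0.458% and 15.1 ± 1.63%. Slc16a1 went from 3.03 ± 1.1% of the 2 monocarboxylate transporters at 1 dpi to 17.95 ± 4.84% at 7 dpi, while both genes fell in level. Egln2 held 41.4 ± 13.5% of the prolyl hydroxylase transcripts at 1 dpi and 74.3 ± 7.02% at 7 dpi, while Egln3 held 23.5 ± 12.9% and 1.37 ± 0.433%. Hk3 was the main hexokinase in every library, with 75.3 ± 1.04% at 1 dpi, 81.7 ± 2.41% at 4 dpi and 65.6 ± 7.73% at 7 dpi. Slc2a1 went from 79.8 ± 7.7% of the 3 glucose transporters at 1 dpi to 58.3 ± 8.98% at 7 dpi, and Slc2a6 from 18.5 ± 7.74% to 38.8 ± 9.1%. The families of Aldoa, Eno1 and P4ha1 changed little, since these genes held at least 97.3% in every library.

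**Figure D5:**
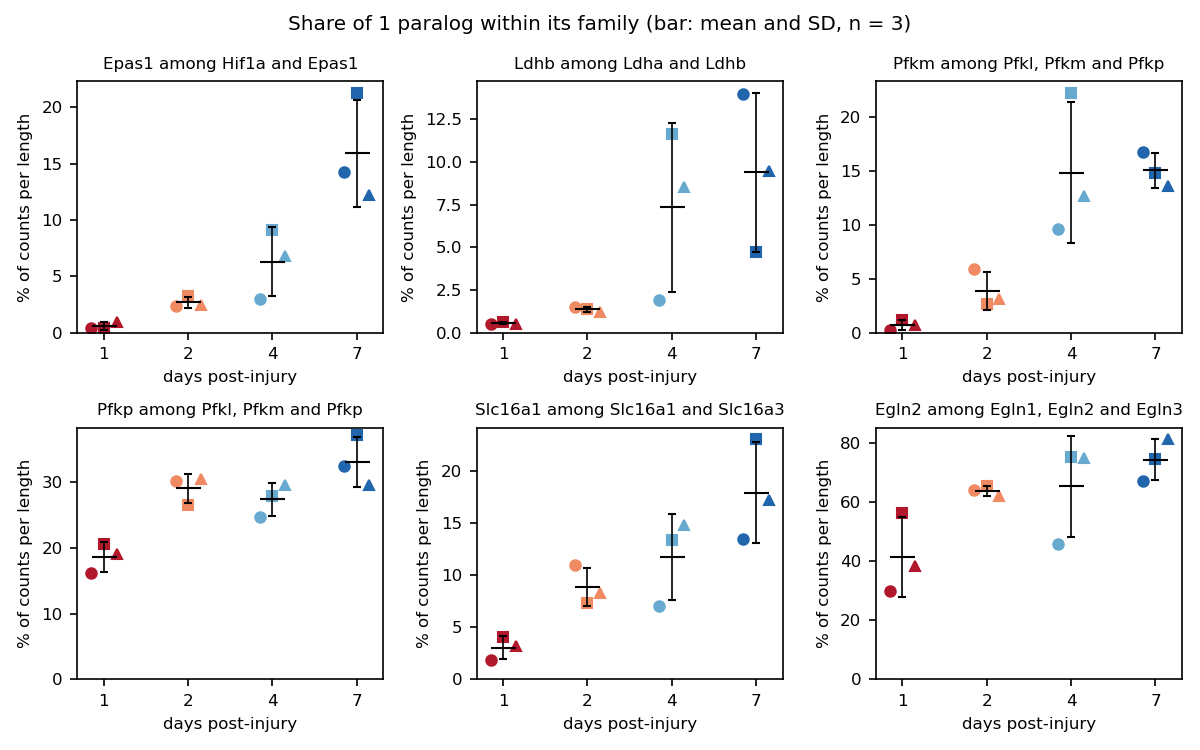
Share of a paralog in the length-divided counts of its family, in percent, for each library by days post-injury, with bars for the mean and SD of 3 libraries. Epas1 goes from 0.579% to 15.9%, Ldhb from 0.548% to 9.39% and Slc16a1 from 3.03% to 17.95% between 1 and 7 dpi in their means, and 4 dpi replicate 1 (circle) is the lowest of its time point in all 6 panels.

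The other genes of these pathways, 90 in all of which 74 passed the filter, moved in both directions. From 1 to 7 dpi 19 of the 74 fell and 13 rose, with a median log2FC of -0.37, against 14% and 19.7% of all genes tested. The values in the following brackets are log2FC. Among the 7 genes of the pentose phosphate pathway, which branches from glucose 6-phosphate and yields NADPH, 3 fell and none rose from 1 to 7 dpi, namely Pgd (-1.63, adjusted P = 4.04e-05), Tkt (-1.19, adjusted P = 0.000113) and Taldo1 (-1.09, adjusted P = 0.000568). The calls of Tkt and Taldo1 were lost without 7 dpi replicate 2 (-0.995, adjusted P = 0.000356 and -0.82, adjusted P = 0.000818), and that of Taldo1 also without 1 dpi replicate 1 (-0.96, adjusted P = 0.00504). G6pdx, its entry enzyme, fell from 4 to 7 dpi (-1.41, adjusted P = 0.00142). Of the 9 tested glycogen genes, 5 fell and none rose from 1 to 7 dpi, among them Gys1, the glycogen synthase (-1.99, adjusted P = 8.07e-05), Pygl, the phosphorylase that frees its glucose (-1.27, adjusted P = 0.000152), and Pgm2 (-1.28, adjusted P = 2.61e-05).

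At the entry of pyruvate into the mitochondrion, 1 of 11 tested genes rose and 1 fell from 1 to 7 dpi, beside 19.7% and 14% of all genes. Pdk2, another kinase of pyruvate dehydrogenase, ranged over 0.629 to 2.87 CPM at 1 dpi, 3.15 to 3.76 at 2 dpi, 11.1 to 25.04 at 4 dpi and 11.7 to 13.6 at 7 dpi and rose from 2 to 4 dpi (log2FC of 2.31 ± 0.36, adjusted P = 0.000358) and from 1 to 7 dpi (log2FC of 2.74 ± 0.38, adjusted P = 2.45e-05). Its relative Pdk1 fell over the same interval, and no test of the difference between them was made. Pdha1, a subunit of pyruvate dehydrogenase itself, fell from 1 to 7 dpi (-1.13, adjusted P = 0.000215), a call lost without 1 dpi replicate 2 or 7 dpi replicate 1 (log2FC -0.98 to -0.94, adjusted P 0.00122 to 0.00267). Among the other transporters of glucose and related sugars, Slc2a8 rose from 1 to 2 dpi (1.27, adjusted P = 0.000512) and from 1 to 7 dpi (1.73, adjusted P = 4.22e-06), and Slc2a9, a carrier of urate, rose from 1 to 2 dpi (1.03, adjusted P = 0.00807), a call lost without 1 or 2 dpi replicate 3 (log2FC 0.90 to 0.96, adjusted P 0.0417 to 0.0585). The call of Slc2a9 was also lost with RLE in place of TMM scaling (0.992, adjusted P = 0.0114) and with DESeq2 (0.996, adjusted P = 0.00245). Of the 8 other glycolysis genes tested, 3 rose from 1 to 7 dpi and none fell. Bpgm, which makes 2,3-bisphosphoglycerate, was higher by a log2FC of 1.24, adjusted P = 0.00627. Pgam2, the muscle form of phosphoglycerate mutase, stood at 0 to 0.0461 CPM at 1 dpi, 0.0751 to 0.179 at 2 dpi, 0.363 to 0.966 at 4 dpi and 0.904 to 1.94 at 7 dpi (adjusted P = 0.000154), beside the higher sum of the muscle fibre markers at 7 dpi, and their part in it was not tested. Ldhd, which acts on D-lactate, stood at 0 to 0.185 CPM at 1 dpi, 0 to 0.199 at 2 dpi, 0.176 to 0.444 at 4 dpi and 0.339 to 1.13 at 7 dpi (adjusted P = 0.0303), a call lost without 1 dpi replicate 1 or 2 or 7 dpi replicate 1 or 3 (adjusted P 0.0635 to 0.107). A fold is not given for these last 2, which had no count in 1 dpi replicates 1 and 2.

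The 24 tested HIF targets outside the 43 members were split, with 8 that fell and 8 that rose from 1 to 7 dpi and a median log2FC of -0.01. Of all genes tested, 14% fell and 19.7% rose in that comparison. From 1 to 2 dpi 2 of the 24 fell and 2 rose, beside 3.97% and 5.09% of all genes. From 2 to 4 dpi 2 fell and 5 rose (median log2FC = 0.24), beside 3.88% and 8.02%. From 4 to 7 dpi 5 fell and 1 rose, beside 5.2% and 7.44%. The targets named next were chosen by smallest adjusted P and do not show this balance. Hilpda, a lipid droplet protein that inhibits lipolysis, fell from 1 to 2 dpi (-1.68, adjusted P = 0.00735) and from 1 to 7 dpi (-4.02, adjusted P = 1.8e-06). Plin2, which coats lipid droplets, and Bhlhe40, a transcriptional repressor, fell from 1 to 7 dpi (-2.27, adjusted P = 3.49e-06 and -2.33, adjusted P = 5.86e-06). Vegfa, the angiogenic growth factor, fell from 1 to 2 dpi (-1.86, adjusted P = 0.00555), Hmox1, which degrades haem, from 2 to 4 dpi (-1.48, adjusted P = 0.00367), and Tfrc, the transferrin receptor, from 4 to 7 dpi (-1.995, adjusted P = 0.000899). Anln, an actin-binding protein of dividing cells, rose from 0, 0 and 0.646 CPM at 1 dpi to 4.81, 5.77 and 5.81 CPM at 2 dpi (adjusted P = 0.000217), and Rora, a nuclear receptor, from 2 to 4 dpi (1.71, adjusted P = 0.00359). Of the 10 other HIF regulators tested, 2 fell from 1 to 7 dpi, the elongin subunits Eloc (-1.11, adjusted P = 0.000511) and Elob (-1.15, adjusted P = 0.00131). From 4 to 7 dpi 3 rose, beside 7.44% of all genes, among them Cited2, which competes with HIF for its coactivators (1.12, adjusted P = 0.0055). The call of Eloc was lost when 1 dpi replicate 1, 7 dpi replicate 1 or 7 dpi replicate 2 was left out (log2FC -0.98 to -0.96, adjusted P 0.00322 to 0.00424), that of Elob without 7 dpi replicate 2 (-0.85, adjusted P = 0.00382) and that of Cited2 without 4 dpi replicate 3 or 7 dpi replicate 1 (log2FC 0.81 to 0.97, adjusted P 0.0276 to 0.0293).

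Exonic length also moved with these results. From 4 to 7 dpi, tested genes with exons shorter than the median of 4076 bases had a median log2FC of -0.17 and longer ones of 0.10. The 20 short members had a median of -1.09 and the 23 long members one of -0.39 in that step, so both lay below the genes of their length class. From 1 to 7 dpi these medians were -1.99 and -1.52 for members and 0.06 and 0.24 for all genes. Exons shared with other genes made up over 10% of the exonic length in 6 members (Ankrd37, Bnip3, Gpi1, Higd1a, Pfkm and Pkm), and without strand in the library the reads of such overlaps cannot be assigned.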

How the data were processed

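RNA had been extracted from 12 macrophage samples and made into full-length poly(A) cDNA libraries with the Smart-seq2/3 protocol, which does not mark strand. Per the labels and the study's methods, the authors used Trim Galore 0.6.6 for trimming, HISAT2 2.2.1 for alignment (GRCm39) and featureCounts of Subread 2.0.1 for counting, and they deposited raw counts without normalization for 55414 genes. Most small counts were even (median 83.1% of the counts from 1 to 20), and halved counts were tried for that reason. There were 0 sample columns without a matching sample.

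Counts were filtered with edgeR's filterByExpr, scaled by TMM and tested with edgeR 4.0.16 (R 4.3.3) in a quasi-likelihood fit of all 12 libraries by time point, with Benjamini-Hochberg adjustment over the 14310 genes tested and log2 CPM at a prior count of 2. DESeq2 1.42.0, limma-voom (limma 3.58.1), other filters and scalings, and leaving out libraries were the alternatives. Library totals of 19528316 to 33599472 counts set the precision, and counts of a few reads are subject to counting error. Symbols and exonic lengths came from GENCODE M21 (GRCm38), another build than the counts, so none of its coordinates are given, and promoters came from RefSeq by symbol. Near copies were annotated pseudogenes at least 90% identical over at least 50% of their length and 200 bases.

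The members and lists were chosen with earlier results of these data known. Every member is named with a value, and values in each library are given for the 24 members with the smallest adjusted P among the DEGs and for Hif1a, Ldha, Ldhb and Gapdh. Of each pathway list, up to 3 DEGs per comparison were chosen by smallest adjusted P.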

Additional observations from a re-analysis of the deposited data

How the results depend on the processing

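Leaving out each library in turn gave between 0 and 1 members that rose from 1 to 2 dpi, between 0 and 3 from 2 to 4 dpi, between 0 and 2 from 4 to 7 dpi and between 3 and 4 from 1 to 7 dpi. The members that fell then numbered between 3 and 8, between 2 and 14, between 9 and 18 and between 27 and 29. With limma-voom, 0, 1 and 2 members rose in the 3 successive steps in place of 1, 2 and 1. By the adjusted P of edgeR alone, without the threshold on log2FC, 4 rose and 9 fell from 2 to 4 dpi and 5 rose from 1 to 7 dpi. Without replicate 1 of both 1 and 4 dpi, an alternative added after seeing the data, 0 members rose from 1 to 2 dpi, 15 fell from 2 to 4 dpi and 10 fell from 4 to 7 dpi. Over all tested genes, same-numbered samples hardly deviated together (mean r of their residuals 0.02, from -0.13 to 0.13). For differently numbered samples the mean was -0.01, from -0.22 to 0.27, so the numbers were not taken as pairs. In the members, however, replicate 1 was the highest library for most of them at both 1 and 4 dpi. With the replicate block 1 member rose from 2 to 4 dpi in place of 2, since Pfkm was no longer called (log2FC of 1.15, adjusted P = 0.0614), Slc16a3 was called lower in that step (-1.42, adjusted P = 0.0178), and the other counts stayed within 1.5 times. Of the 65 single calls of members, 21 were lost when some library was left out and 17 under some other alternative, and none changed sign. These other alternatives include leaving out replicate 1 of both 1 and 4 dpi, so the 17 do not count processing alone. Of them, Pfkl from 1 to 2 dpi was lost in that setting and with no change of processing. The cause was not tested. Shares by raw counts, not divided by length, had the same order over time in Epas1 and Ldhb. The groups of 3 libraries are too small for a test of single outliers, and members with few counts a library, such as Adm (2 to 24) and Eno2 (5 to 83), are limited by depth.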
